A study of Mus musculus with 24 samples.

Results

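Heat shock proteins and the DNAJ co-chaperones that work with them were followed in differentiated mouse embryonic stem (ES) cells with and without REV-ERBα and REV-ERBβ, repressors of transcription in the circadian clock. The members were taken by symbol: every row whose name begins with Hspa, Hspb, Hspd, Hspe, Hsph, Hsp90, Dnaja, Dnajb or Dnajc and a number, together with the heat shock factors Hsf1 and Hsf2, the HSP70 cofactor Bag3 and the cold-inducible RNA-binding proteins Cirbp and Rbm3. This gave 78 rows of 33079 in the table, for 77 symbols, since Hspa14 has 2 rows that overlap. Of these 78 rows, 71 passed the expression filter, a mean above 0.5 RPM (fragments scaled to the library total) over the 12 libraries of either genotype, which 15112 rows of the whole table passed. Of the 71, 70 passed it in both genotypes and Dnajc6 in WT alone. The 7 rows that did not pass were Dnajb3, Dnajb7, Dnajb8, Dnajc5b, Dnajc5g, Hspb3 and Hspb9, none above 0.354 RPKM in any library, and Dnajc5g was at 0 in every library.

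Polyadenylated RNA was sequenced from control cells (WT) and Rev-erbα/Rev-erbβ double-knockout cells (KO), both of which carry the Per2::Luciferase knock-in reporter of the clock gene Per2. Cells were differentiated through embryoid bodies, given 100 nM dexamethasone, a glucocorticoid that synchronizes the clocks of cultured cells, at day 28, and frozen every 4 h from 12 to 56 h later. Each genotype has 12 libraries, 1 per time point, each from the pooled RNA of 3 embryoid bodies, so no time point has a replicate. The KO line was made by CRISPR deletion of an exon of Rev-erbα in an already established Rev-erbβ-deficient line, and how many mutant lines entered the RNA-seq is not stated. Genotype and cell line therefore cannot be told apart, and because these are bulk samples of mixed differentiated cells, nor can fewer cells of a type and less RNA per cell.

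The libraries held 6426254 to 10287969 fragments on exons in WT and 6183500.5 to 9868080 in KO, and the members took 0.901% to 0.982% of them in WT and 0.932% to 1.015% in KO. Rev-erbα (Nr1d1) had a median of 4.67 RPKM in WT and 6.93 in KO, and Rev-erbβ (Nr1d2) 1.83 and 3.16. These levels cover the whole transcript and do not show the loss of a single exon, so they cannot be used to check the genotype. The paper reports that sequencing of genomic DNA and cDNA showed the deletions, and that quantitative PCR did not detect the targeted exons in KO. Bmal1 (Arntl), a target that REV-ERB proteins repress, had a median of 3.48 RPKM in WT (2.89 to 4.64) and 4.62 in KO (4.18 to 5.61). Of the markers of cell types that such cultures can hold, those of striated and heart muscle were higher in KO for 8 of 10 and lower for 1 (Tnnt2), with a summed level of 53.4 to 98.2 RPKM in WT and 76.7 to 147 in KO. Smooth muscle markers were higher for 3 of 4 (233 to 323 against 246 to 361 RPKM). Neuron markers were lower for 6 of 8 (3.80 to 36.7 against 2.19 to 12.3 RPKM), with Snap25, Dcx, Elavl3 and Elavl4 at 0 in some libraries, and ciliated cell markers were lower for 3 of 4 (1.66 to 2.89 against 1.14 to 1.97 RPKM). By the same test 11.5% of all expressed genes were higher in KO and 14.7% lower.

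**Figure D1:**
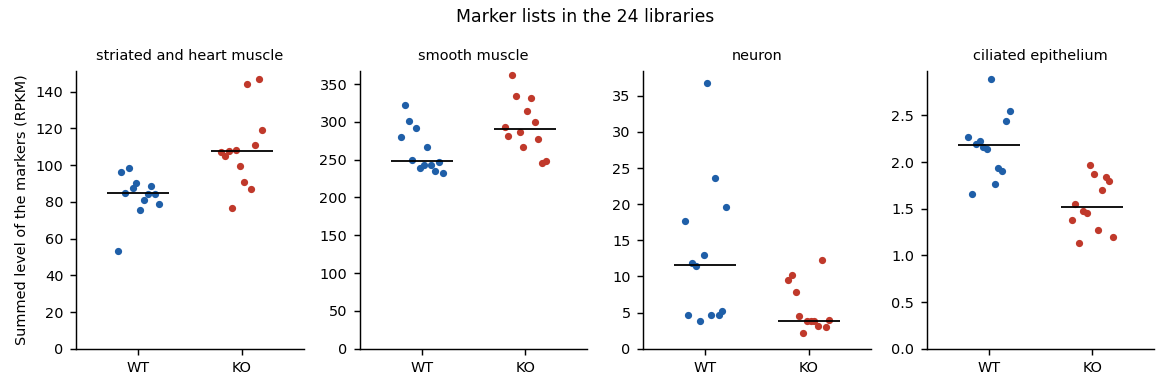
Summed level (RPKM, linear axes from 0) of 4 marker lists in the 12 WT and 12 KO libraries, with libraries in order of time from left to right within each genotype and a black line at the median. The KO median is above the WT median for both muscle lists and below it for neuron and ciliated epithelium markers, and in each panel the genotypes overlap.

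Heat shock proteins are molecular chaperones, which bind unfolded protein and help it to fold, to refold after stress or to be degraded. HSP70 proteins do so in cycles of ATP hydrolysis that DNAJ (HSP40) co-chaperones start and nucleotide exchange factors such as HSP110 and BAG3 reset; HSP90 acts on nearly folded clients such as steroid receptors, small heat shock proteins hold unfolded protein without ATP, and the chaperonin HSP60 (Hspd1) with its lid HSP10 (Hspe1) folds protein in mitochondria. Many of the cytosolic genes are induced by the transcription factor HSF1 through heat shock elements, inverted repeats of the letters GAA, and the endoplasmic reticulum (ER) chaperones by the unfolded protein response through the ER stress response element (ERSE). In body tissues several of these genes follow the daily rhythm of temperature, targets of HSF1 rising with warmth and Cirbp and Rbm3 with cold.

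The sequences before the start sites of the genes that the results turn on are shown first. They come from RefSeq (GRCm38.p6), which had a window from 250 bases before to 50 after the start for 61 of the 77 symbols, 79 windows in all. Entries were missing for Dnajc2, Dnajc5, Dnajc5b, Dnajc11, Dnajc12, Dnajc18, Dnajc22, Dnajc30, Hsf1, Hsp90aa1, Hsp90ab1, Hspa8, Hspa9, Hspa13, Hspb2 and Rbm3. Each line below runs 5′ to 3′ on the strand of the gene. The first set holds 3 genes that were higher in KO, with the pair of inverted heat shock repeats (GAANNTTC or TTCNNGAA, which read the same on both strands) in capitals. Hspb1 is shown from chr5:135887669-135887918 (plus strand), Hspa1b from chr17:34959239-34959488 (minus strand) and Hspa1a from chr17:34972157-34972406 (minus strand), each ending at the base before the start site.
Hspb1: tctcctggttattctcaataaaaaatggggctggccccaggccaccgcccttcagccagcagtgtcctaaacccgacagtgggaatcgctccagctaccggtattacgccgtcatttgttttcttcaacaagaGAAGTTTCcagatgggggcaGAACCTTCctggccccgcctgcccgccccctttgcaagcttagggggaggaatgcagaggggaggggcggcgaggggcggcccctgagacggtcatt
Hspa1b: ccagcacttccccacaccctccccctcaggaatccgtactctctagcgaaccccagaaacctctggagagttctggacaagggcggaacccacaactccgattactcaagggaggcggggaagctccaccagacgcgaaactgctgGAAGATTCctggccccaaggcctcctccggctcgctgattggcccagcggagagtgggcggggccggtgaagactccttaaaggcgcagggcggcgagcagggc
Hspa1a: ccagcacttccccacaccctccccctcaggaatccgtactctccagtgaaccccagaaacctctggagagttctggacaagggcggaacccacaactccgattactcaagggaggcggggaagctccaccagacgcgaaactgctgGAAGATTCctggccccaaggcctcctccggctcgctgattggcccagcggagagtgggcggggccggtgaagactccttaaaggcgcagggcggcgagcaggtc
Counting from -1 at the base before the start, Hspb1 holds 2 such pairs, which begin at -117 and -97, and Hspa1b and Hspa1a hold 1 each, both at -104. The windows of Hspa1a and Hspa1b are the same at 296 of 300 positions.

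Hspd1 and Hspe1 lie head to head, and 285 bases of a Hspd1 window are the Hspe1 window read on the other strand. These shared bases hold an unbroken array of the repeats, shown as 30 bases of the Hspe1 strand at chr1:55088053-55088082, from -95 to -66, which lie within annotated exons in GENCODE vM21.
Hspe1: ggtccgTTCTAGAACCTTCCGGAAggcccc
The pair was found in the windows of 17 of the 61 matched members (27.9%) and of 17.0% of all 27025 genes with a window. The triple (GAANNTTC followed by NNGAA, or TTCNNGAA followed by NNTTC, on either strand, each match also counted as pairs) was found in Dnajb6, Hspd1, Hspe1 and Hsph1, 6.56% of the members, and in 0.662% of all genes.

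The second set holds the 3 members whose windows match the ERSE (CCAAT and CCACG with 9 bases between them, on either strand, so that each match also counts as a CCAAT match), in capitals. Hsp90b1 is shown from chr10:86705510-86705694 (minus strand, from -250 to -66), Dnajc3 from chr14:118937682-118937931 (plus strand, from -250 to -1) and Hspa5 from chr2:34772020-34772049 (plus strand, from -70 to -41 and within annotated exons in GENCODE vM21).
Hsp90b1: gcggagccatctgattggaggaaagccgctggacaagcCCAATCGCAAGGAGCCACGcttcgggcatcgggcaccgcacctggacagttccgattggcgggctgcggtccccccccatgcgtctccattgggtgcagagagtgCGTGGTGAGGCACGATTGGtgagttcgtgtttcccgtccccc
Dnajc3: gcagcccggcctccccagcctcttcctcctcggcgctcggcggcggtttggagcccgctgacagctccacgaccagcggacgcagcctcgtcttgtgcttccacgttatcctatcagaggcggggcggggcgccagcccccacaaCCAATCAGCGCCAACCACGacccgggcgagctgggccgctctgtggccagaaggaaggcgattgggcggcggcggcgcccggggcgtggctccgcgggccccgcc
Hspa5: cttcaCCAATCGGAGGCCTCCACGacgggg
These are 4.92% of the matched members, against 0.137% of all genes with a window. The E-box CACGTG, to which the CLOCK and BMAL1 pair can bind, was found in 7 members (11.5%, against 8.09% of all genes), and AGGTCA, the half-site that REV-ERB proteins bind beside an A/T-rich stretch, in 15 (24.6%, against 18.1%), both on either strand. Such a match is letters in a window and not a measured binding site.

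Hspb1, a small heat shock protein that also binds actin filaments, had the highest mean of all members over the 24 libraries. In WT it was at the level of Hsp90ab1, the constitutive cytosolic HSP90 (306 ± 21.3 and 309 ± 18.2 RPKM, SD, n = 12), so these neighbours did not differ beyond their spread. Hspa8, the constitutive cytosolic HSP70, followed at 229 ± 9.42 RPKM in WT and 225 ± 5.43 in KO. RPKM is per exonic length, and levels of different genes are set side by side on that scale. A gene with near-identical copies can lose reads to the mapping quality filter of the authors. Shared sequence was examined only for Hspa1a and Hspa1b. The ER chaperones came next, with Hspa5 (BiP, the ER HSP70) at a WT median of 150.1 RPKM and Hsp90b1 (GRP94, the ER HSP90) at 122, and their ranges in WT overlapped. Hspb7, a small heat shock protein of heart and muscle, had a WT median of 71.1 RPKM, Hsp90aa1, the inducible HSP90, 59.1, Hspa9 (mortalin, the mitochondrial HSP70) 43.1, Hspd1 32.7 and Hspe1 28.1.

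The heat-inducible HSP70 genes were far below the constitutive Hspa8, with WT medians of 5.83 RPKM for Hspa1b and 2.34 for Hspa1a. Their levels are uncertain: 1344 of the 101-base windows of the Hspa1a transcript, 46.9%, occur unchanged in Hspa1b, and reads that map to both copies have a low mapping quality and were removed by the authors. Over all libraries the SD of log2(RPKM + 0.1), among members with a mean of at least 1 RPKM, was largest for Hspb2 (0.26), Hspa12a (0.26), Hspb1 (0.25), Hspb6 (0.22) and Dnajc17 (0.22).

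**Figure D2:**
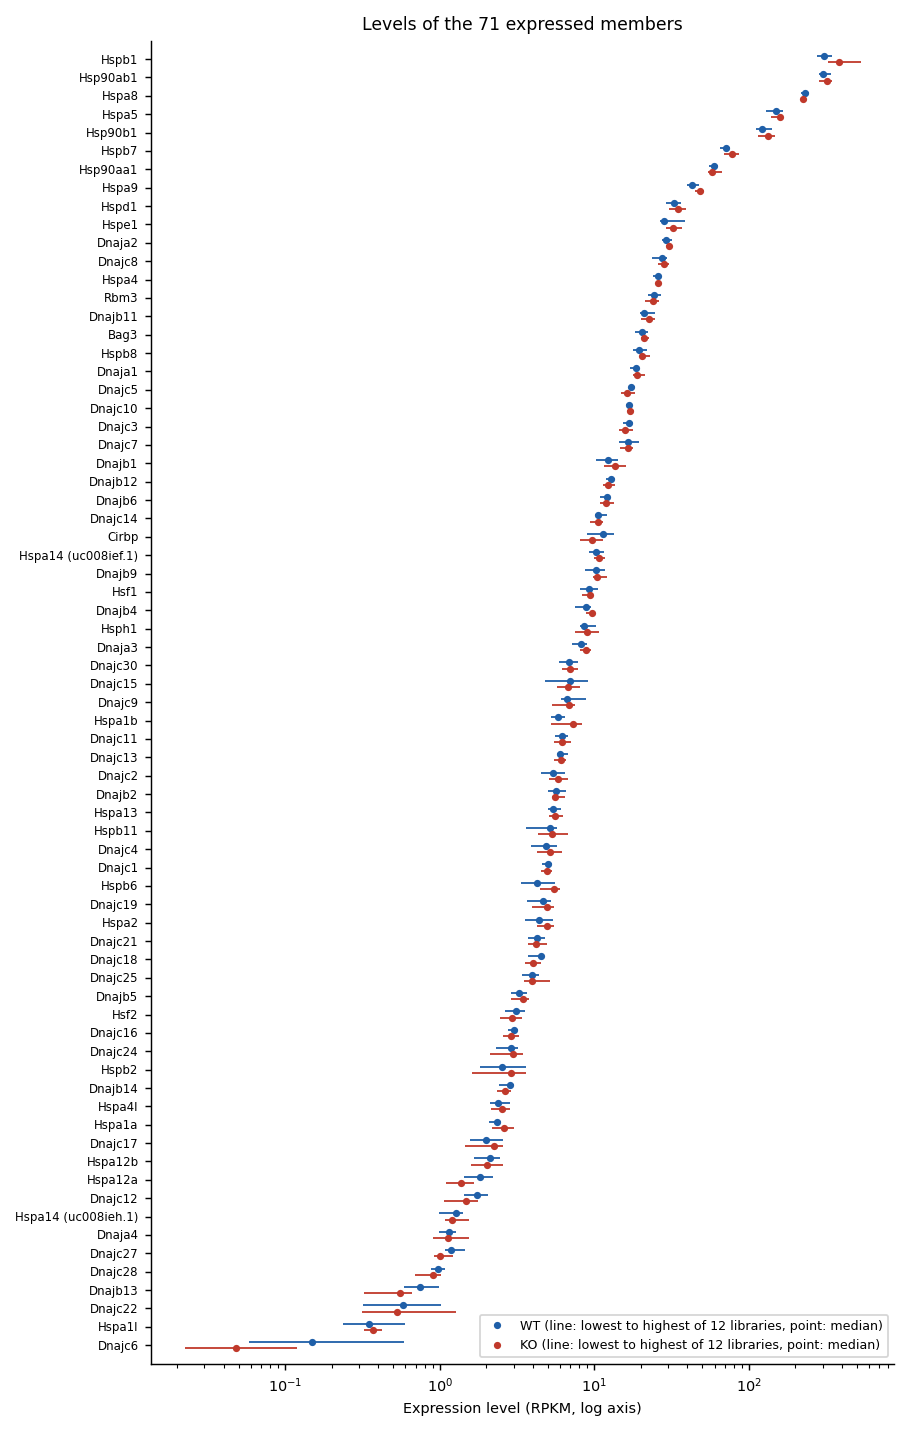
Levels (RPKM, log axis) of the 71 expressed members in order of their mean over 24 libraries, with lines from the lowest to the highest of the 12 WT (blue) or 12 KO (red) libraries and points at the medians. Hspb1, Hsp90ab1, Hspa8, Hspa5 and Hsp90b1 stand at the top and Dnajc6 at the bottom, and in no member are the WT and KO lines apart.

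The first comparison asked which members differed in level between KO and WT over the 12 time points. Those higher in KO were 4 of the 6 small heat shock proteins (Hspb1, Hspb6, Hspb7 and Hspb8), 4 HSP70 genes (Hspa1a, Hspa1b, Hspa2 and the mitochondrial Hspa9), Hspe1, Dnaja2 and Dnajb4, by 0.07 to 0.38 on the log2 scale, while the HSP70-like Hspa12a, Cirbp and 5 DNAJ genes were lower. Of the 71 members, 18 passed an adjusted p of 0.05 in limma (25.4%, against 26.3% of all genes tested), 11 of them higher (15.5%, against 11.5%) and 7 lower in KO (9.86%, against 14.7%). The share of members called was thus near that of all genes, as it was at an unadjusted p under 0.05 (26 members, 36.6%, against 38%). The median log2 difference was 0.03 over the members and -0.01 over all genes. With quantile normalization 16 members passed, 8 higher and 8 lower. No member had all 12 KO libraries above all 12 WT libraries or below them, which was so for 0.199% and 0.41% of all genes. At all 12 time points 1 member, Hspb1, was higher in KO (1.41%, against 2.65%) and 3 members, Hspa12a, Dnajc6 and Cirbp, were lower (4.23%, against 3.65%). Dnajc6, which is in both counts of lower members, passed the expression filter only through WT, where it was higher. Its place in them is therefore not independent of the filter, which was the same for all genes.

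Among the 6 expressed small heat shock proteins, 4 passed the test, all higher in KO, as were 11.5% of all genes. The other 2, Hspb2 (log2 difference 0.13, adjusted p = 0.366 in limma) and Hspb11 (also known as IFT25, a protein of transport in cilia, 0.12, adjusted p = 0.236), did not pass. Hspb1 ranged from 274 to 346 RPKM in WT with a median of 307, and from 326 to 528 RPKM in KO with a median of 386. KO was above WT at 12 of 12 time points, and 10 KO libraries were above the highest WT library. The difference was 0.38 ± 0.06 (log2, SE; limma, adjusted p = 9.47e-05), and 0.24 with the time points of 12 to 32 h alone (adjusted p = 0.0371). The KO libraries of 40 and 44 h, at 528 and 489 RPKM, were the highest of all.

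Hspb6, which is abundant in smooth and heart muscle, ranged from 3.37 to 5.57 RPKM in WT with a median of 4.25 and from 4.45 to 6.02 RPKM in KO with a median of 5.48. KO was higher at 10 of 12 time points, with overlapping ranges, by 0.28 ± 0.07 (log2, SE; limma, adjusted p = 0.00353). Hspb7 had medians of 71.1 RPKM in WT and 77.8 in KO (log2 difference 0.13, adjusted p = 0.0134 in limma). Hspb8, the partner of Bag3 in the disposal of damaged protein, had medians of 19.6 and 20.4 RPKM (0.10, adjusted p = 0.0375), and lost the call in 10 of the 24 fits that left out a library. The striated and smooth muscle markers described above were also higher in KO, all but Tnnt2 of those that passed, and their part in the result was not tested. Across the 12 libraries within a genotype, none of the 16 correlations of these 4 genes with the summed levels of the 2 muscle lists passed (Pearson, permutation test, two-sided, lowest adjusted p = 0.316 over a family of 26). The largest parts of the sums were Tnnt2 (mean of 46.3 RPKM in WT), which was lower in KO, and Acta2 (158), which did not pass. Tagln, which was higher in KO, followed Acta2 at 101 RPKM. The correlations therefore say little about the other markers that were higher.

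In the HSP70 and HSP110 group 4 of 15 rows were higher and 1 was lower (11.5% and 14.7% of all genes). Hspa1b ranged from 5.24 to 6.5 RPKM in WT with a median of 5.83, and from 5.28 to 8.34 RPKM in KO with a median of 7.30. KO was higher at 11 of 12 time points. The KO libraries of 32 h (5.28 RPKM) and 52 h (6.37) lay within the WT range and the other 10 above the highest WT library. The log2 difference was 0.30 ± 0.05 (SE; limma, adjusted p = 0.000229). Its copy Hspa1a had medians of 2.34 RPKM in WT and 2.61 in KO, was higher at 10 of 12 time points and differed by 0.15 ± 0.05 (log2, SE; limma, adjusted p = 0.02). Hspa2, best known from the testis, had medians of 4.36 and 4.91 RPKM and was higher at 11 of 12 time points (log2 difference 0.16, adjusted p = 0.0293 in limma), a call lost without the KO library of 40 h or that of 48 h. The testis markers Ddx4 and Sycp3 did not pass the test, and Prm1 and Dazl were below the expression filter.

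Hspa9 ranged from 39.7 to 47.5 RPKM in WT with a median of 43.1, and from 45.1 to 51.0 RPKM in KO with a median of 48.1. KO was higher at 11 of 12 time points, and 11 WT libraries were below the lowest KO library. The log2 difference was small but had a small error, 0.16 ± 0.03 (SE; limma, adjusted p = 0.000226), and did not pass with the time points of 36 to 56 h alone (0.09, adjusted p = 0.139). Hspe1, the other mitochondrial member that passed, had medians of 28.1 RPKM in WT and 32.4 in KO (log2 difference 0.15, adjusted p = 0.0267 in limma), with the WT library of 20 h, at 38.3 RPKM, above every KO library. Hspd1, which shares its promoter region, had medians of 32.7 and 34.7 RPKM and did not pass (0.08, 95% confidence interval 0.000459 to 0.17, adjusted p = 0.129). Of the 9 mitochondrial members 2 were higher and none was lower (11.5% and 14.7% of all genes).

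Hspa12a, a distant HSP70 relative, ranged from 1.43 to 2.22 RPKM in WT with a median of 1.81 and from 1.10 to 1.67 RPKM in KO with a median of 1.37. KO was lower at 12 of 12 time points, and 7 KO libraries were below the lowest WT library. The log2 difference was -0.38 ± 0.07 (SE; limma, adjusted p = 0.000503). Its close relative Hspa12b, which is found in endothelial cells, did not pass (medians of 2.12 and 2.01 RPKM, log2 difference -0.04, 95% confidence interval -0.20 to 0.13).

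Of the 40 DNAJ genes tested 2 were higher and 5 lower (11.5% and 14.7% of all genes). Of the 4 DNAJA genes, which serve cytosolic and mitochondrial HSP70, Dnaja2 was higher (medians of 29.0 and 30.6 RPKM, log2 difference 0.07, adjusted p = 0.0312 in limma), a call lost in 7 of the 24 fits that left out a library. Of 10 DNAJB genes 1 was higher and 1 lower. Dnajb4, which acts with cytosolic HSP70, was at 8.78 RPKM in WT and 9.67 in KO by the medians, higher at 11 of 12 time points and by 0.15 ± 0.03 (log2, SE; limma, adjusted p = 0.00258). Dnajb13, a part of the radial spoke of cilia and sperm tails, ranged from 0.590 to 0.992 RPKM in WT with a median of 0.742 and from 0.325 to 0.662 RPKM in KO with a median of 0.551. It was lower at 11 of 12 time points by 0.53 ± 0.10 (log2, SE; limma, adjusted p = 0.000631), on 15.7 and 10.04 fragments per library in WT and KO. At a pseudocount of 1 in place of 0.1 the difference was -0.23. The ciliated cell markers moved the same way, and their correlation with Dnajb13 over the 12 libraries of a genotype did not pass (r = -0.192 and rho = -0.189 in WT and r = -0.0215 and rho = 0.0559 in KO, permutation test, adjusted p = 0.716, 0.802, 0.947 and 0.959).

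Of 26 DNAJC genes none was higher and 4 were lower (11.5% and 14.7% of all genes), so the share of lower ones was near that of all genes. Dnajc6 (auxilin, which uncoats clathrin vesicles in neurons) ranged from 0.0585 to 0.587 RPKM in WT with a median of 0.149 and from 0.0225 to 0.120 RPKM in KO with a median of 0.0482. It was lower at 12 of 12 time points, with the WT library of 36 h the highest, and differed by -0.78 ± 0.19 (log2, SE; limma, adjusted p = 0.00343) on only 17.0 and 4.42 fragments per library. This size moves with the pseudocount: with the pseudocount at 1 the difference was -0.16 and at 0.01 it was -1.44, both past the threshold (adjusted p = 0.0161 and 0.00124). It passed the expression filter through WT alone, the genotype in which it was higher. Dnajc27 had medians of 1.19 RPKM in WT and 1.002 in KO (log2 difference -0.22, adjusted p = 0.0053), Dnajc12, a cofactor of aromatic amino acid hydroxylases, 1.74 and 1.47 RPKM (-0.24, adjusted p = 0.013), and Dnajc18 4.54 and 4.04 RPKM (-0.13, adjusted p = 0.0239, all limma).

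Levels of these genes were set beside the neuron markers, which were lower in KO as a list. In WT, Dnajc6 rose and fell with the summed neuron markers over the 12 libraries (Pearson r = 0.788, permutation test, two-sided, p = 0.00124, adjusted p = 0.0322 over 26 tests; Spearman rho = 0.762, p = 0.00574, adjusted p = 0.122; r = 0.623 without the 2 libraries farthest from the median). In KO r was 0.502 (adjusted p = 0.368). Hspa12a and Dnajc12 had r of 0.639 and 0.613 in WT, which did not pass (both adjusted p = 0.316), and of -0.202 and 0.283 in KO. Dnajc27 had r of 0.405 in WT and -0.286 in KO, and neither passed (adjusted p = 0.5 and 0.652). The WT library of 36 h had the highest neuron sum, 36.7 RPKM, and without it the difference of each of Dnajc6, Dnajc12 and Hspa12a between genotypes still passed the test. The WT libraries of 12, 32, 44 and 56 h, at 17.63, 13.01, 23.65 and 19.67 RPKM, were also above the highest KO library (12.3). The remaining WT libraries lay within the KO range. Leaving out 1 library therefore cannot show the part of the neuron markers in the difference, which was not tested.

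Cirbp, the RNA-binding protein induced by mild cold, ranged from 8.99 to 13.3 RPKM in WT with a median of 11.3 and from 8.06 to 11.4 RPKM in KO with a median of 9.67. All 12 time points had the lower value in KO, though the ranges overlapped, and the difference was -0.23 ± 0.06 (log2, SE; limma, adjusted p = 0.00529). Rbm3, its relative with the same response to cold, ranged from 22.3 to 27.1 RPKM in WT with a median of 24.2 and from 21.4 to 26.1 RPKM in KO with a median of 23.8. KO was higher at 6 time points and lower at 6, and the log2 difference was -0.01 with a 95% confidence interval of -0.07 to 0.06 (limma, adjusted p = 0.89). Rbm3 overlaps Rbm3os on the other strand, and since no use of strand is stated for the counts, reads of this pair cannot be told apart. Cirbp likewise overlaps the row Bc1 on the other strand.

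**Figure D3:**
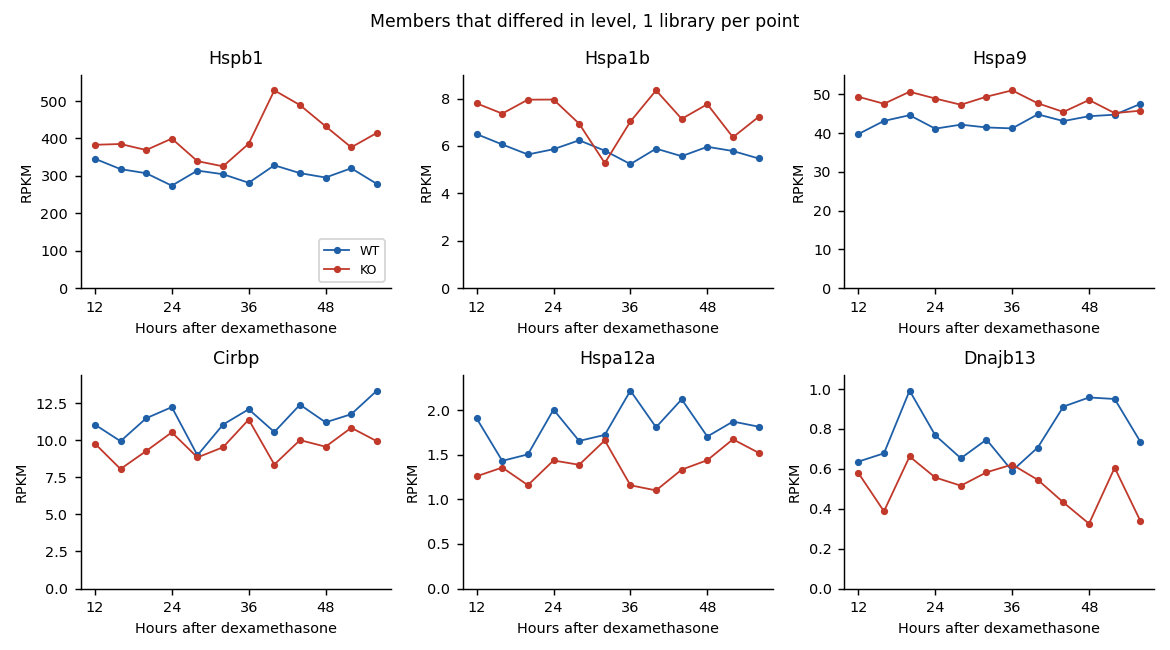
RPKM (linear axes from 0) against hours after dexamethasone for 6 members that differed between WT (blue) and KO (red), with 1 library per point. Hspb1, Hspa1b and Hspa9 lie higher in KO at 12, 11 and 11 of 12 time points, and Cirbp, Hspa12a and Dnajb13 lower at 12, 12 and 11.

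The regulators among the members, Hsf1, Hsf2 and Bag3, did not pass the test. Hsf1, the main heat shock transcription factor, had medians of 9.19 RPKM in WT and 9.34 in KO (log2 difference -0.01, 95% confidence interval -0.09 to 0.08), Hsf2 3.11 and 2.95 RPKM (-0.06, interval -0.17 to 0.05), and Bag3 20.4 and 21.0 RPKM (0.05, interval -0.000903 to 0.10). Of 14 cytosolic chaperones listed as HSF1-inducible, which include the constitutive Hspa8 and Hsp90ab1, 5 were higher in KO (Hspa1a, Hspa1b, Hspb1, Hspb8 and Dnajb4). None was lower, and the median log2 difference was 0.06 (11.5% of all genes were higher and 14.7% lower). Hsph1 (HSP110; 8.58 and 9.02 RPKM), Dnajb1 (12.3 and 13.6 RPKM), Hsp90aa1 (59.1 and 57.9 RPKM) and Hspa8 (229.85 and 223 RPKM), all medians in WT and KO and all on that list, did not pass. None of the 3 HSP90 genes and none of the 8 ER members passed.

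Of the called members with a promoter window, 7 of 10 higher in KO held the heat shock pair, against 1 of 5 lower and 7 of 40 not called. Over all genes tested with a window these shares were 14.1%, 13.3% and 14%. The members are not independent here, since the windows of Hspa1a and Hspa1b are nearly the same and those of Hspd1 and Hspe1 share their repeats. The 15 tested members with the pair had a median log2 difference of 0.08 and the 40 without it 0.02. Among 25 other chaperones and cofactors, most of them cytosolic, 6 were higher (Stip1, Bag1, Cct8, Ptges3, Cryab and Cct2, co-chaperones, chaperonin subunits and a crystallin). The 1 that was lower was Hsf4, a heat shock factor outside the members (log2 difference -0.44, adjusted p = 0.000537 in limma, lower at 11 of 12 time points). Their median log2 difference was 0.07, and of all genes tested 11.5% were higher and 14.7% lower. Of 14 further ER folding and stress genes 3 were higher (Trib3, Manf and Xbp1) and none was lower, with a median of 0.03. Immediate early genes, which respond to handling at harvest, were split, with Jun and Junb higher and Fos and Egr1 lower of 7.

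**Figure D4:**
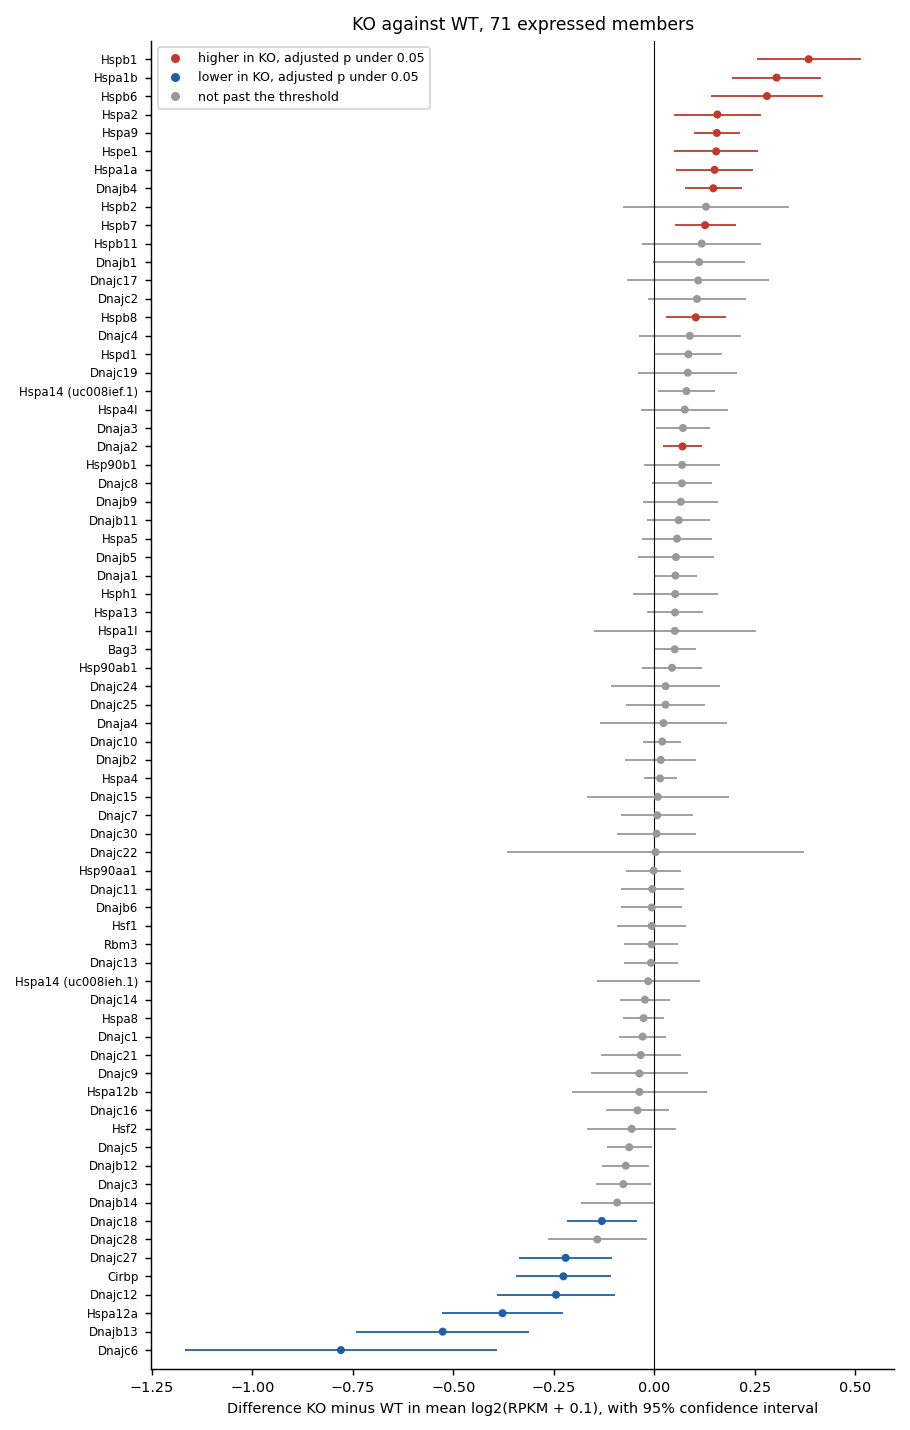
Difference between KO and WT in mean log2(RPKM + 0.1) for the 71 expressed members, with 95% confidence intervals from limma. Red marks the 11 members higher and blue the 7 lower in KO at an adjusted p under 0.05, from 0.38 for Hspb1 to -0.78 for Dnajc6. The size for Dnajc6 moves with the pseudocount, and this gene passed the expression filter through WT alone.

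The second comparison asked whether members cycled with a 24 h period, and whether the rhythm differed between genotypes. No member passed an adjusted p of 0.05 in limma for the cosine and sine terms, in WT (0.0397% of all genes did) or in KO (0.0794%). At an unadjusted p under 0.05 there were 2 members in WT, Hspa8 and Hspa5 (2.82%, against 8.23% of all genes), and 5 in KO, Hspb1, Dnajb6, Dnajc3, Hspa1b and Dnajb1 (7.04%, against 8.39%), named here after their values were seen. The median amplitude, from mean to peak, was 0.05 on the log2 scale in WT and 0.06 in KO, and 0.08 and 0.07 over all genes. A JTK_CYCLE type test found no member at an unadjusted p under 0.05 in either genotype (2.81% and 2.66% of all genes), and none had p under 0.05 together with a relative amplitude over 0.17 (2.8% and 2.57%).

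Hspb1 had the smallest p of the members in KO (amplitude 0.23 on the log2 scale, peak 17.6 h after dexamethasone and every 24 h thereafter, p = 0.000636, adjusted p = 0.334 in limma), with an amplitude of 0.03 in WT. Its difference in rhythm was the only one among the members with an unadjusted p under 0.05 (p = 0.021, adjusted p = 0.941 in limma). No gene in the whole table passed the test of that difference after adjustment (0%), and 4.93% had an unadjusted p under 0.05. Cirbp and Rbm3, which cycle in many tissues, had amplitudes of 0.04 and 0.02 in WT and of 0.06 and 0.004 in KO on the log2 scale, none with an adjusted p below 0.943 in limma.

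The third comparison asked which members rose or fell steadily from 12 to 56 h, with the change over this time as the effect. In KO 5 members passed (7.04%, against 3.14% of all genes), 4 falling (5.63%, against 1.37%) and 1 rising (1.41%, against 1.77%). In WT 2 passed (2.82%, against 2.89%), 1 falling (against 1.51%) and 1 rising (against 1.38%). No member, and no gene at all (0%), passed the test of the difference between the trends in KO and WT, so no trend is shown to be particular to a genotype.

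Hspa12b fell in both genotypes. It was at 2.16 RPKM at 12 h and 1.70 at 56 h in WT, with the highest library at 20 h (2.45) and the lowest at 52 h (1.66), and at 2.23 and 1.59 RPKM in KO, with the highest at 16 h (2.55). The fitted change was -0.47 ± 0.12 in WT (log2, SE; limma, adjusted p = 0.0307) and -0.62 ± 0.12 in KO (adjusted p = 0.00528). Dnajc15, a DNAJ protein of the inner mitochondrial membrane, rose in WT, from 5.04 RPKM at 12 h to 9.16 at 56 h, by 0.61 ± 0.16 (log2, SE; limma, adjusted p = 0.0379). In KO its change was 0.26 ± 0.16 (adjusted p = 0.421) and the highest library was at 36 h.

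Of the 8 ER members 3 fell in KO and none rose (1.37% and 1.77% of all genes). Hsp90b1, whose row overlaps 1810014B01Rik on the other strand, was at 147 RPKM in the KO library of 12 h and at 114 in that of 56 h, its highest and lowest, and the change was -0.39 ± 0.07 (log2, SE; limma, adjusted p = 0.00349). In WT it was highest at 12 h (140.45 RPKM) and lowest at 36 h (110.55), with a change of -0.20 ± 0.07 (adjusted p = 0.133). Hspa5 ranged from 139.7 RPKM at 56 h to 167 at 16 h in KO and changed by -0.25 ± 0.07 (adjusted p = 0.0487), and Dnajc3 (p58IPK, an ER co-chaperone of BiP) ranged from 14.4 RPKM at 44 h to 17.7 at 32 h in KO and changed by -0.24 ± 0.06 (adjusted p = 0.0423). In WT these changed by -0.18 and -0.06 (adjusted p = 0.179 and 0.694). The Hsp90b1 call held in all 24 fits that left out a library, while that of Hspa5 was lost in 20 and that of Dnajc3 in 17, and both were lost without the cosine and sine terms (-0.24, adjusted p = 0.052, and -0.17, adjusted p = 0.17).

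The 3 ER members that fell in KO were the 3 whose windows hold the ERSE letters shown above, a match noted after the values were seen, and of the 4 ER members with a window but no match, Dnajb9, Dnajb11, Dnajc1 and Dnajc10, none passed. Among the 14 other ER genes, Calr fell in both genotypes (-0.31 in WT and -0.32 in KO, adjusted p = 0.00639 and 0.00527 in limma), and Pdia3, Canx and Manf fell in KO (-0.27, -0.22 and -0.30). Of the 4 of them with the letters, Calr, Canx, Pdia6 and Creld2, 2 fell in KO, against 1 of 8 without them. Of all genes tested 1.37% fell in KO, and this share was not worked out by the presence of the letters. The counts rest on calls, and those of Hspa5 and Dnajc3 were lost in 20 and 17 of 24 fits. Whether the letters go with the trend was not tested. Manf, which fell in KO, and Hyou1, which did not pass, had no window and are in neither group. Dnajb11, the ER DNAJ partner of BiP, changed by -0.19 ± 0.08 in KO (adjusted p = 0.249) and -0.11 ± 0.08 in WT (adjusted p = 0.606). Of the 25 other chaperones and cofactors, Serpinh1, the collagen chaperone of the ER, fell in both genotypes (-0.30 in each), Fkbp5, a glucocorticoid-induced HSP90 partner, rose in KO (0.36, adjusted p = 0.0141 in limma) and St13, an HSP70 partner, rose in WT (0.19, adjusted p = 0.0389).

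Hspb1 was the only member that rose in KO, by 0.43 ± 0.11 (log2, SE; limma, adjusted p = 0.0394), against -0.08 ± 0.11 in WT (adjusted p = 0.802). The difference between these trends was 0.51 (p = 0.00403, adjusted p = 0.647), and the KO call was lost in 10 of the 24 fits that left out a library, among them those without the KO library of 40 or 44 h. Without the cosine and sine terms the rise in KO was 0.24 (adjusted p = 0.356), and it did not pass with quantile normalization (adjusted p = 0.0824) or no filter (adjusted p = 0.0729). At an unadjusted p under 0.05 the trends of 8 members differed (11.3%, against 6.5% of all genes), namely Hspb1, Hspa9, Hspd1, Dnajc5, Dnajb2, Dnajb4, Dnajb9 and Hsp90aa1. For Hspa9, the change was 0.17 in WT and -0.10 in KO, and its WT and KO values met at 52 and 56 h (44.7 against 45.1 and 47.5 against 45.8 RPKM).

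**Figure D5:**
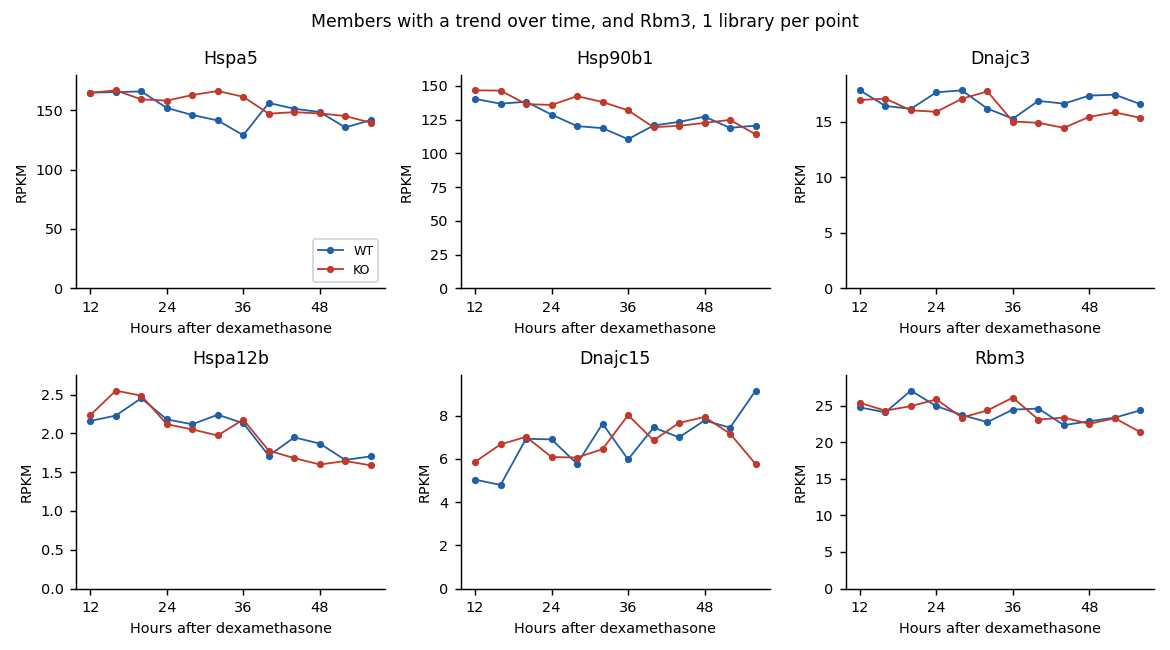
RPKM (linear axes from 0) against hours after dexamethasone for the members called for a trend other than Hspb1, and for Rbm3, in WT (blue) and KO (red), with 1 library per point. Hsp90b1 falls from 147 to 114 RPKM in KO and Hspa12b falls in both genotypes, while Dnajc15 rises from 5.04 to 9.16 RPKM in WT and Rbm3 stays between 21.4 and 27.1 RPKM.

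The last comparison asked which members varied together over the 12 libraries of a genotype, for 8 pairs in each genotype (16 tests, log2 scale, two-sided permutation tests with 100000 permutations). Libraries of a genotype are successive time points and share the scaling to the library total. The BiP and GRP94 genes Hspa5 and Hsp90b1 varied together most closely, with r = 0.915 and rho = 0.916 in WT (p = 4e-05 and 0.0001, adjusted p = 0.00032 and 0.0016) and r = 0.947 and rho = 0.895 in KO (p = 2e-05 and 0.00031, adjusted p = 0.00032 and 0.00248). Without the 2 libraries farthest from the median r was 0.847 and 0.942. Taking out a linear trend left r at 0.851 in WT and 0.75 in KO, or 0.581 and 0.85 without 2 libraries. The rho was then 0.622 in WT, which did not pass (adjusted p = 0.0702), and 0.874 in KO (adjusted p = 0.00752). With quantile normalization r was 0.771 in WT (adjusted p = 0.0259) and 0.933 in KO (adjusted p = 0.0008).

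Hspa5 and Dnajb11 had r = 0.77 and rho = 0.776 in WT (p = 0.0034 and 0.00404, adjusted p = 0.0136 and 0.0162) and r = 0.727 and rho = 0.615 in KO (p = 0.0061 and 0.0379, adjusted p = 0.0195 and 0.0759), or 0.639 and 0.592 by r without 2 libraries. Without its linear trend the KO correlation was 0.212 (adjusted p = 0.541). Hspd1 and Hspe1, the head-to-head pair, had r = 0.725 and rho = 0.783 in WT (p = 0.00897 and 0.00401, adjusted p = 0.0239 and 0.0162) and r = 0.696 and rho = 0.734 in KO (p = 0.013 and 0.00801, adjusted p = 0.0297 and 0.0256), or 0.542 and 0.592 without 2 libraries. With a linear trend taken out r was 0.771 in WT (adjusted p = 0.0155) and 0.647 in KO (adjusted p = 0.0515). The rho was then 0.692 in WT and 0.629 in KO, and neither passed (adjusted p = 0.0641 and 0.0702).

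Among the cytosolic genes, Hsph1 and Hsp90aa1 varied together in KO (r = 0.794, p = 0.00177, adjusted p = 0.00944; rho = 0.678, p = 0.0186, adjusted p = 0.0426; r = 0.718 without 2 libraries), and had r = 0.194 and rho = 0.168 in WT (adjusted p = 0.645 and 0.69). The heat-induced Hsph1 and the cold-induced Cirbp varied in opposite directions in KO (r = -0.647, p = 0.0232, adjusted p = 0.0465; rho = -0.699, p = 0.0142, adjusted p = 0.0378), with r = -0.447 without 2 libraries and r = -0.63 (adjusted p = 0.0588) with a linear trend taken out, and had r = -0.0749 in WT (adjusted p = 0.86). That the correlations differ between the genotypes was not tested. Hsph1 with Hspa8 (r = 0.448 in WT and 0.628 in KO, adjusted p = 0.228 and 0.0539), Hsph1 with Dnajb1 (0.317 and 0.346, adjusted p = 0.439 and 0.396) and Cirbp with Rbm3 (0.04 and 0.264, adjusted p = 0.9 and 0.502) did not pass. With a linear trend taken out of both genes, Cirbp and Rbm3 had r = 0.823 in KO (adjusted p = 0.00744) and 0.362 in WT (adjusted p = 0.329).

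Over 12043 genes with a mean of at least 1 RPKM, the genes whose pattern was most like that of Rbm3, by the mean of the WT and KO values of r, were Fam32a (0.882), Pgd (0.865), Eif4a1 (0.865), Ctbp1 (0.863) and Ppia (0.841). Those most like Cirbp were D17H6S56E-5 (0.754), Ppp3cb (0.747), Gclc (0.736), Pik3ip1 (0.733) and Fggy (0.714). Those most like Hsph1 were Hnrnpul2 (0.828), Tifab (0.826), Smtnl2 (0.819), Ubfd1 (0.814) and Pabpc4 (0.811). None of the 5 nearest to any of these 3 genes was a member. Members are only 71 of the 15112 expressed genes, so this does not show whether these 3 genes vary with other members. These values are a description over 12 libraries per genotype.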

How the data were processed

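PolyA-selected RNA of 12 WT and 12 KO libraries was sequenced by the authors as 101-bp paired-end reads. Per their methods and processing notes, the reads were trimmed (Trimmomatic 0.36), mapped to GRCm38/mm10 (STAR 2.5.4b), filtered for a mapping quality of at least 10 (SAMtools) and counted on exons of UCSC known canonical genes (HOMER); the use of strand is not given in the sources used here. The authors deposited the values as RPKM, scaled to exonic length and library total, and gave each total in the header of the table. Between 6183500.5 and 10287969 fragments per library lay on exons. Values times exonic length and total came out as multiples of 0.5 fragment within 0.01, so they describe depth, and a count test was not run. The fewer fragments a member has, the larger its counting error.

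The groups were taken from the labels. The members and lists were chosen with earlier results of these data known. Differences in level, 24 h cosine and sine terms and linear trends were tested with limma 3.58.1 (eBayes with trend) in R 4.3.3 on log2(RPKM + 0.1) over all 15112 genes with a mean above 0.5 RPM in WT or KO, adjusted by Benjamini-Hochberg and called at 0.05. The tests were checked on simulated data before use. A fold change on this scale understates the change of low genes. MetaCycle was not used; a JTK_CYCLE type test was an alternative. With 1 library per time point, the time points of a genotype served as its replicates, and whether they come from separate cultures is not stated, so p-values measure only the spread between these libraries. Same-numbered libraries of WT and KO share a time point. Their deviations correlated by -0.175 to 0.389 over 12 pairs, with a median of 0.18 and above 0.1 for 7, against a mean of -0.0149 for libraries of different time points. Some effect of the time point may thus be shared. The main fit did not treat them as pairs, because the two-tailed t tests of the paper name no pairing, and a block for the time point was an alternative. Correlations, promoter letters (RefSeq, GRCm38.p6), GENCODE vM21 overlaps and figures were made with numpy 2.4.6, pandas 2.3.3 and matplotlib 3.10.9 under Python 3.11.15.

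Named with values are Hsf1, Hsf2, Bag3, Cirbp, Rbm3, every called member up to the 12 with the smallest p per test, the 10 members with the highest mean, the 5 with the largest SD, the genes of the correlated pairs, and Hspa1a and Hspa1b; members named beyond this were chosen after their values were seen. Alternatives were the pseudocount (1 or 0.01), a minimum of 1 RPKM or no filter, quantile normalization, a block for the time point, covariates, early or late time points, periods of 22 and 26 h, and leaving out each library, which, with the marker correlations, was chosen after seeing the data.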

Additional observations from a re-analysis of the deposited data

How the results depend on the processing

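The count of 18 members that differed in level was 16 to 19 under other pseudocounts, filters, quantile normalization and covariates, 15 to 20 when any 1 library was left out, 5 with the time points of 12 to 32 h alone and 11 with those of 36 to 56 h alone, where fewer libraries entered. No called value changed its direction under any alternative. Values that had not passed did: the level differences of Hsf2 (0.04) and Rbm3 (0.01) at 12 to 32 h and of Hsf1 (0.02) at 36 to 56 h, those of Hsf1 and Rbm3 also when some single libraries were left out, and, with linear trends taken out, r in WT of Cirbp with Hsph1 (0.425) and of Hsph1 with Dnajb1 (-0.0369). A pseudocount of 1 brought the differences to -0.16 for Dnajc6, -0.23 for Dnajb13, -0.25 for Hspa12a, -0.13 for Dnajc27 and -0.16 for Dnajc12, and 0.01 brought that of Dnajc6 to -1.44, all still called. Quantile normalization ended the calls of Hspe1 (adjusted p = 0.0517), Hspb7 (0.113), Hspb8 (0.0719) and Dnaja2 (0.214), and no filter that of Hspb8 (0.0522); the cause was not tested. Left-out libraries ended calls of Hspa2 (KO 40 and 48 h), Dnaja2 (WT 24, 32 and 36 h, KO 12, 36, 40 and 48 h, adjusted p up to 0.0592) and Hspb8 (WT 12, 20, 24, 32 and 36 h, KO 32, 40, 44, 48 and 52 h, up to 0.0703). With the time point as a replicate block 18 members passed, 11 of them higher, over 4374 genes called in place of 3970; Dnaja2 lost its call (0.0601), the differences in rhythm and trend stayed at 0 and 0, and 5 of 12 WT libraries correlated best with their own time point in KO. Rhythm counts stayed at 0 under every alternative and left-out library, as did the trend difference. The 2 trends in WT became 4 with a minimum of 1 RPKM, 1 with no filter and 4 without cosine and sine terms, and 0 to 3 when a library was left out (0 without WT 28, 44 or 48 h). The 5 trends in KO became 2 with no filter (lost: Hspb1, adjusted p = 0.0729, Hspa5, 0.0763, and Dnajc3, 0.0556), 4 with quantile normalization (lost: Hspb1, 0.0824, and Dnajc3, 0.0549) and 4 without cosine and sine terms, where Hspb1 (0.24, adjusted p = 0.356), Dnajc3 (-0.17, 0.17) and Hspa5 (-0.24, 0.052) lost their calls, and 2 to 5 when a library was left out (2 without KO 20, 28, 32, 40, 44, 52 or 56 h). The 8 correlations that passed by r became 6 with linear trends taken out. In KO, Hspa5 with Dnajb11 (r = 0.212), Hspd1 with Hspe1 (0.647, adjusted p = 0.0515) and Cirbp with Hsph1 (-0.63, 0.0588) no longer passed and Cirbp with Rbm3 (0.823) did. Of those 6, Hspa5 with Hsp90b1 in WT (adjusted p = 0.0702), Hspd1 with Hspe1 in WT (0.0641) and Hsph1 with Hsp90aa1 in KO (0.0702) did not pass by rho. With quantile normalization 7 passed by r. Hsph1 with Hspa8 in KO (0.68, 0.0351) passed, and Hspa5 with Dnajb11 (r = 0.495, adjusted p = 0.165) and Hspd1 with Hspe1 (r = 0.569, adjusted p = 0.127) in WT no longer passed. By rho, Hsph1 with Hspa8 (0.0586), Hsph1 with Hsp90aa1 (0.0654) and Hspd1 with Hspe1 (0.0586) in KO did not pass with this normalization. Dnajc6 and Dnajb13 rest on few fragments, and their size moves with the pseudocount.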
